A study of Mus musculus with 2 samples.

Results

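CRYAB and CKM, both genes of striated muscle cytoplasm, were followed across nuclei of the mouse right atrium. They were selected by symbol from the count tables of the study after earlier results of the same data had shown CRYAB counts in nuclei without TTN. Their spread over nuclei is therefore a description, and nothing is tested on it. They are 2 of the 9330 genes with a count. Each library was made from 3 pooled right atria of adult mice. One pool came from Tbx5 G125R/+ mice, which carry 1 knocked-in copy of the Tbx5 p.G125R allele beside a wild-type copy in every cell, and the other came from control mice, which the protocol calls wild type. Nuclei were sorted by DAPI, 7000 were loaded per library on the 10x Genomics platform, and the tables hold 2933 Tbx5 G125R/+ and 3475 control nuclei. With 1 library per genotype, genotype and library cannot be told apart, no p-value was computed between them, and all 95% intervals cover counting error only.

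CRYAB (alpha-B-crystallin) is a small heat shock protein that keeps desmin, titin and other sarcomere proteins folded, and it is abundant in heart and oxidative skeletal muscle. CKM, the muscle creatine kinase, transfers phosphate between creatine phosphate and ATP near the myofibrils. Messages of both genes are translated in the cytoplasm and code for soluble proteins. TTN, in contrast, is transcribed over a very long gene and gives many counts from RNA still inside a cardiomyocyte nucleus, and TNNI3 codes for cardiac troponin I. COL1A1 and FBLN1 mark fibroblasts, FLT1 and TEK mark endothelium and MRC1 marks macrophages. Cytoplasmic messages in a preparation of nuclei are commonly used to gauge how much RNA from outside the nucleus was captured with it.

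In the mouse genome (GRCm38, GENCODE M21), Cryab lies on chromosome 9 from 50751325 to 50756636 and Ckm on chromosome 7 from 19404776 to 19422841, each on the plus strand. Their exons cover 1291 of 5312 bases of Cryab and 2742 of 18066 bases of Ckm. The RefSeq model of Hspb2 (50751072 to 50752354) overlaps the Cryab model on chromosome 9, and HSPB2 itself has no counts in either library. The strand of Hspb2 was not looked up, and whether the overlap touched the counting of CRYAB was not tested. The tables list human Ensembl identifiers (ENSG00000109846 for CRYAB and ENSG00000104879 for CKM), although the submitters' processing notes name the mouse build mm10. The RefSeq promoter of Ckm is shown with its match to the half-site of T-box factors, the family of TBX5. It runs from 250 bases before to 50 bases after the RefSeq transcription start (GRCm38.p6, chr7:19410844-19411143, plus strand). RefSeq places Ckm from 19411094 to 19421583, so the window lies inside the longer GENCODE span. The E-box CANNTG and the T-box half-site TCACAC are in capitals.
Ckm promoter: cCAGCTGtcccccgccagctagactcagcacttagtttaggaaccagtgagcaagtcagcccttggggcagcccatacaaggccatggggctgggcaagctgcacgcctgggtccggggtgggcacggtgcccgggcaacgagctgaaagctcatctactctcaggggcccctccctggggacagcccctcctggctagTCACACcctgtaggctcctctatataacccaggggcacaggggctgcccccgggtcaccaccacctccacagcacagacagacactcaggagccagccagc
A search on both strands found 1 CANNTG match, at position 2 of the window, and 1 TCACAC match, at position 200. CANNTG is held by 72.3% and TCACAC by 14.5% of 32851 RefSeq promoter windows of this length. The exact sequence TATAAA was not matched in the window and is held by 13.6% of all windows. Variants of it were not searched, and the window does hold tatataa before the transcription start. The GATA site AGATAA was not matched either (11.2% of windows), nor was a MEF2 site (3.19%) or a CArG box (1.63%).

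Depth was low in both libraries. A nucleus had 144 counts on average in Tbx5 G125R/+ (45 to 1164) and 161 in control (55 to 1217), and the libraries summed to 422811 and 560272 counts. No nucleus name was shared between the libraries, and cell barcodes are not part of the tables used here. Markers of the same cell type differed widely in counts. The endothelial marker FLT1 was counted 30 times in Tbx5 G125R/+ and 32 times in control, and TEK 200 and 285 times. Of the cardiomyocyte markers TTN had 5448 and 5376 counts and TNNT2 16 and 17. Of the fibroblast markers COL1A1 had 354 and 687 counts and DCN 38 and 29. The macrophage marker MRC1 was counted 14 and 8 times. Transcripts encoded by the mitochondrial genome had 0 and 1 counts, red blood cell markers had 0 counts in each library, and a list of 8 skeletal muscle markers had 1 and 0 counts. These zeros are not read as a property of the nuclei, because genes of atrial muscle and other cells such as MYL7, PLN, SLN, MB, ALDOA, LDHB and PECAM1 are listed at 0 in both libraries as well. The cluster labels deposited with the counts were not used to form classes, because TTN stood at 66.9 to 170 counts per 10000 in all 11 labels of the Tbx5 G125R/+ library and COL1A1 at 3.79 to 12.9.

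CRYAB was well counted in both libraries. The Tbx5 G125R/+ library held 1308 CRYAB counts and the control library 2083. Its level was 30.9 per 10000 counts in Tbx5 G125R/+ (95% interval 29.3 to 32.7) and 37.2 in control (35.6 to 38.8). At least 1 CRYAB count was found in 27.7% of Tbx5 G125R/+ nuclei (26.1 to 29.4, exact Clopper-Pearson) and in 31.7% of control nuclei (30.1 to 33.3). CKM gave 110 and 170 counts, a level of 2.60 per 10000 in Tbx5 G125R/+ (2.14 to 3.14) and of 3.03 in control (2.60 to 3.53), and a count in 3.31% and 4.201% of nuclei. Most nuclei that held CRYAB held a single count (544 of 813 in Tbx5 G125R/+ and 658 of 1101 in control), and the maximum per nucleus was 20 in Tbx5 G125R/+ and 16 in control. For CKM the maximum was 3 and 4 counts.

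Both transcripts were found far beyond the nuclei with TTN. The 2143 Tbx5 G125R/+ and 2665 control nuclei without a TTN count made up 73.1% and 76.7% of nuclei and 61.7% and 65.5% of all counts. They held 43.4% and 45.0% of all CRYAB counts, and 39.1% and 41.2% of all CKM counts. TNNI3 divided in the same proportions, with 44.5% and 44.0% of its counts in nuclei without TTN. MYH6, the alpha myosin heavy chain of atrial and adult mouse ventricular muscle, left 15.96% and 19.4% of its counts there.

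The CRYAB level did not climb steadily with TTN. In Tbx5 G125R/+ nuclei it was 21.8 per 10000 with no TTN count, 57.2 with 1, 52.3 with 2 to 3, 59.8 with 4 to 7, 33.8 with 8 to 15 and 33.5 with 16 or more. In control nuclei the levels over the same classes were 25.5, 61.0, 96.5, 62.2, 49.9 and 29.2. The nuclei richest in TTN thus had CRYAB levels close to those without TTN in control, where the intervals for 16 or more (23.4 to 35.9) and for 0 (23.9 to 27.2) overlapped. Nuclei with 4 or more TTN counts, the class used as TTN-rich, numbered 438 in each library. Their CRYAB level was 41.5 per 10000 in Tbx5 G125R/+ and 49.0 in control, and the log2 ratio over nuclei without TTN was 0.93 (0.75 to 1.11) in Tbx5 G125R/+ and 0.94 (0.79 to 1.09) in control. With TTN-rich set at 8 or more the ratios were 0.63 and 0.73, and at 16 or more, a limit chosen after the values were seen, 0.63 and 0.20.

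CKM rested on far fewer counts. Its level in Tbx5 G125R/+ nuclei was 1.65 per 10000 with no TTN count, 4.61 with 1, 6.89 (4.01 to 11.0) with 2 to 3, 4.78 with 4 to 7, 2.27 with 8 to 15 and 3.56 (1.84 to 6.21) with 16 or more. In control nuclei the levels were 1.91, 4.499, 6.39 (3.96 to 9.77), 7.15, 4.98 and 2.30 (0.923 to 4.73). The highest class was thus 2 to 3 TTN counts in Tbx5 G125R/+ and 4 to 7 in control, and among classes with TTN the only intervals that did not overlap were those of 4 to 7 and 16 or more in control. The TTN-rich over TTN-free log2 ratio of CKM was 1.05 (0.38 to 1.71) in Tbx5 G125R/+ and 1.41 (0.89 to 1.92) in control, and at 16 or more TTN counts it was 1.15 in Tbx5 G125R/+ and 0.36 in control. Of genes with at least 100 counts over the compared nuclei, 16% of 776 in Tbx5 G125R/+ and 15.6% of 998 in control were higher in TTN-rich nuclei by over 1.5-fold. CRYAB was past that fold in each library and CKM in control, whereas CKM had too few counts for the limit in Tbx5 G125R/+. The median log2 ratio over these genes was −0.37 in Tbx5 G125R/+ and −0.36 in control. The members were picked with such values known, so nothing is read from their being among these genes.

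TNNI3 content ordered the nuclei differently. In Tbx5 G125R/+ nuclei CRYAB stood at 20.9 per 10000 with no TNNI3 count (n = 1784), 29.6 with 1 (n = 735), 48.0 with 2 to 3 (n = 340) and 104 with 4 or more (n = 74). Control nuclei gave 20.4 (n = 2077), 31.4 (n = 817), 54.3 (n = 408) and 114 (n = 173). No interval overlapped that of a neighbouring class, in either library. CKM increased over the same classes, at 1.71, 2.49, 4.41 and 8.13 per 10000 in Tbx5 G125R/+ and 1.29, 1.99, 4.98 and 11.8 in control, where the intervals of all neighbouring classes overlapped in Tbx5 G125R/+ and those of the 2 lowest classes overlapped in control. Within nuclei of 4 or more TTN counts, CRYAB was at 29.8 per 10000 without TNNI3 and 56.8 with 2 or more TNNI3 counts in Tbx5 G125R/+, and at 25.02 and 72.1 in control. Within nuclei of no TTN count it was at 17.6 without TNNI3 and 58.0 with 2 or more in Tbx5 G125R/+, and at 18.7 and 63.2 in control. In each library the level was thus higher with 2 or more TNNI3 counts than without TNNI3, whether TTN was absent or abundant. With a single TNNI3 count it was 30.9 in Tbx5 G125R/+ and 28.3 in control in TTN-rich nuclei, near the levels without TNNI3. In nuclei without TTN a single TNNI3 count gave 23.3 and 28.4.

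**Figure D1:**
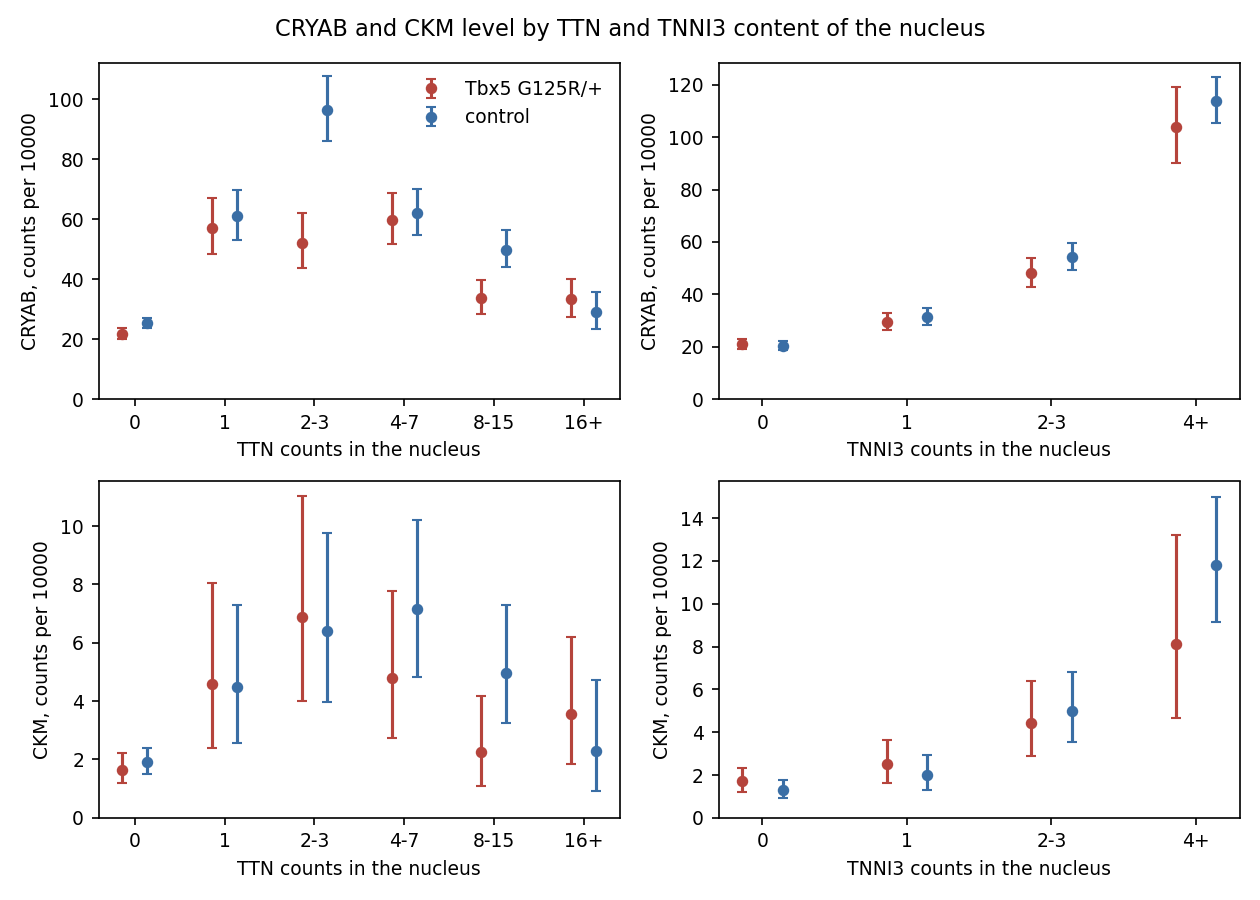
Level of CRYAB (upper row) and CKM (lower row) in counts per 10000, by the number of TTN counts (left) and TNNI3 counts (right) in the nucleus. Points are pooled levels of the Tbx5 G125R/+ (red) and control (blue) library and bars are 95% Poisson intervals; CRYAB peaks at 1 to 7 TTN counts but increases over all 4 TNNI3 classes, to 104 per 10000 in Tbx5 G125R/+ and 114 in control.

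The nuclei with the most CRYAB counts were cardiomyocyte-marked and deep. They were picked by a raw count, which shallow nuclei can hardly reach, so their depth follows in part from the choice. CRYAB counts of 8 or more were found in 7 Tbx5 G125R/+ nuclei and 23 control nuclei, which held 5.73% and 11.1% of the CRYAB counts of their library. Every one of these nuclei had TNNI3, at 7 or more counts in Tbx5 G125R/+ and 2 or more in control, and 1 control nucleus had no TTN. Their depth ranged from 364 to 965 counts in Tbx5 G125R/+ and from 223 to 819 in control. The leading Tbx5 G125R/+ nucleus held 20 CRYAB, 21 TNNI3, 5 TTN and 1 CKM counts among 514, and the leading control nucleus 16 CRYAB, 13 TNNI3, 3 TTN and 0 CKM counts among 494. A COL1A1, FBLN1, FLT1 or MRC1 count was also present in 5 of the 7 and 19 of the 23 nuclei. Deep nuclei hold any gene more often, and no share at equal depth was computed for these nuclei. No doublets were removed for this work, and the part of droplets with more than 1 nucleus in these values was not tested.

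CRYAB was also counted in nuclei with a fibroblast, endothelial or macrophage marker and no TTN. A single marker count set nuclei apart only weakly, because COL1A1, FBLN1, FLT1 or MRC1 was found in 25.1% of Tbx5 G125R/+ and 28.5% of control TTN-rich nuclei, beside 27.95% and 33.7% of nuclei without TTN. With 80 counts drawn per nucleus these shares were 9.29% and 10.5% in TTN-rich nuclei, and 21.4% and 24.4% without TTN. COL1A1-marked nuclei without TTN had CRYAB at 22.6 per 10000 in Tbx5 G125R/+ (n = 240, 17.9 to 28.2) and 22.9 in control (n = 420, 19.4 to 26.8). FBLN1-marked nuclei were at 18.8 (n = 421, 15.3 to 22.8) and 23.4 (n = 618, 20.4 to 26.7). These levels are close to the 22.6 (20.5 to 24.9) and 26.1 (24.04 to 28.2) of nuclei with neither TTN nor any of the 4 markers. FLT1 marked few nuclei, and 27 Tbx5 G125R/+ and 26 control nuclei held 7 CRYAB counts each, at 14.8 (5.95 to 30.5) and 16.04 (6.45 to 33.1) per 10000. TEK, an endothelial receptor outside the selection rule but on the marker list, gave 16.1 (n = 156, 11.2 to 22.4) and 17.3 (n = 214, 13.2 to 22.2). Nuclei with 2 or more COL1A1 counts and no TTN were at 10.8 (n = 40, 4.65 to 21.2) in Tbx5 G125R/+ and 23.8 (n = 98, 17.4 to 31.8) in control, and those with 2 or more FBLN1 counts at 14.3 (n = 104, 8.88 to 21.9) and 20.2 (n = 171, 15.3 to 26.2). MRC1 marked 9 and 7 nuclei without TTN, with 2 and 3 CRYAB counts.

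When any of the 4 markers was present and TTN absent, 21.4% of 599 Tbx5 G125R/+ nuclei (18.2 to 24.9) and 25.4% of 899 control nuclei (22.5 to 28.3) held CRYAB. Median depth in these nuclei was 123 and 137 counts, against 238 and 259 in TTN-rich nuclei, where 50.9% and 56.6% held CRYAB. Drawing 80 counts from each nucleus, and leaving out 73 and 59 shallower marker nuclei, put the share at 13.97% and 15.02% in marker nuclei and at 24.6% and 26.8% in TTN-rich nuclei. CKM was found in 13 of the 599 Tbx5 G125R/+ marker nuclei (2.17%, 1.16 to 3.68) and in 24 of the 899 control marker nuclei (2.67%, 1.72 to 3.95). None of the FLT1-marked nuclei held CKM, which with 0 of 27 and 0 of 26 nuclei allows a share of up to 12.8% and 13.2%. A stricter class, with a marker but neither TTN nor TNNI3, had CRYAB at 15.96 per 10000 in Tbx5 G125R/+ (n = 423, 12.8 to 19.7) and 17.7 in control (n = 628, 15.1 to 20.6).

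**Figure D2:**
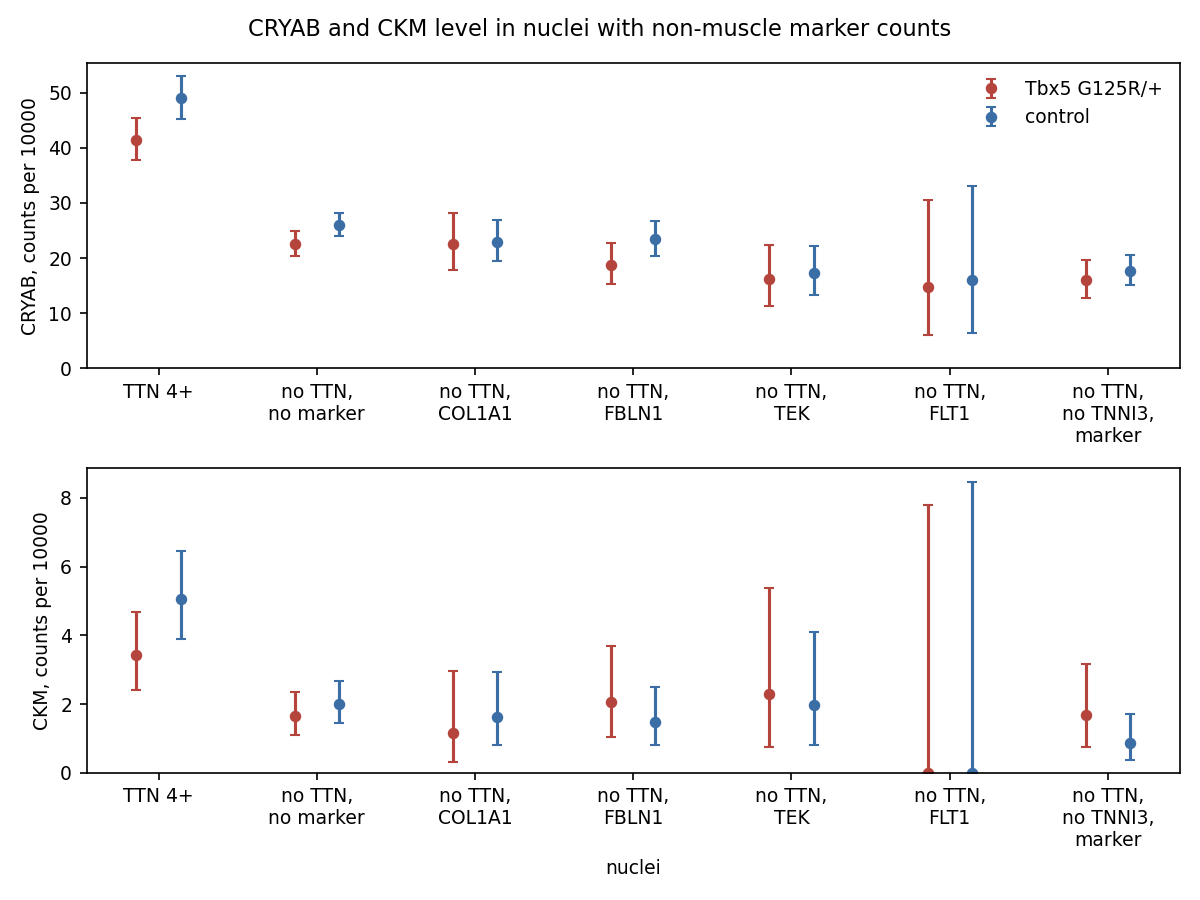
Level of CRYAB (top) and CKM (bottom) in counts per 10000 in TTN-rich nuclei, in nuclei without TTN that hold none of the 4 markers or a COL1A1, FBLN1, TEK or FLT1 count, and in marker nuclei with neither TTN nor TNNI3. Points are pooled levels with 95% Poisson intervals for Tbx5 G125R/+ (red) and control (blue); CRYAB in marker nuclei lies between 14.8 and 23.4, below the TTN-rich 41.5 and 49.0, and CKM is listed at 0 in FLT1-marked nuclei.

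How evenly the counts lay over the marker nuclei depended on the class and the library. Over all marker nuclei without TTN, variance over mean of the CRYAB count was 1.27 in Tbx5 G125R/+ and 1.85 in control, where a spread in proportion to depth gave 1.07 and 1.08. The class without TNNI3 leaves out nuclei in which CRYAB was high. If each of the 423 Tbx5 G125R/+ nuclei with a marker and neither TTN nor TNNI3 had drawn CRYAB in proportion to its depth, 18.2% would have held a count, and 18.2% did. The control class held CRYAB in 20.7% of nuclei, with 22.5% for an even spread. Variance over mean was 1.03 in Tbx5 G125R/+ and 1.24 in control in this class, with 1.03 and 1.06 for an even spread, so the control counts were the less even. CKM was found in 2.13% and 1.27% of these nuclei, and the even spread gave 2.10% and 1.26%, on 9 and 8 counts. At so few counts, with at most 1 in a nucleus, the 2 shares are close under most spreads. Whether CKM lay evenly therefore cannot be read from them. In TTN-rich nuclei CRYAB was clumped, with variance over mean at 3.02 in Tbx5 G125R/+ and 3.47 in control where an even spread gave 1.18 and 1.29.

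Muscle transcripts differed in how far they reached into the marker nuclei. The CRYAB level in marker nuclei without TTN was 64.4% of its level over all nuclei in Tbx5 G125R/+ (54.7 to 75.3) and 66.3% in control (59.4 to 73.8). CKM was at 63.8% (34.0 to 109) and 57.9% (37.1 to 86.1). TNNI3 stood at 63.9% and 57.4%, and ACTC1, the cardiac alpha-actin of the thin filament, at 68.8% and 55.2%. MYL4, the atrial essential light chain of myosin, was at 66.7% and 57.6%. The level of MYH7, the slow beta myosin heavy chain, was 49.5% and 45.2%, and that of TPM1, the tropomyosin of the thin filament, 41.1% and 43.8%, although MYH6 and MYH7 are so alike that reads could be split between them. MYH6 was at 22.8% (18.5 to 27.7) and 23.4% (20.1 to 27.2), well under CRYAB. TNNC1, cardiac troponin C, was singled out after its values were seen: it had 2 and 5 counts in marker nuclei, which is 8.31% (1.01 to 30.0) and 8.65% (2.81 to 20.2) of its level over all nuclei.

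Gene length did not order these genes closely. Across 17 muscle genes with at least 100 counts, TTN left out, the correlation of log2 gene span with the share of a gene's counts in nuclei without TTN was −0.33 in Tbx5 G125R/+ and −0.16 in control (Pearson, across genes, which share libraries and are not replicates). TNNC1 spans 3418 bases and left 2.31% and 7.59% of its counts in nuclei without TTN, while Cryab spans 5312 bases and left 43.4% and 45.0%. RYR2, a very long gene for the channel through which the sarcoplasmic reticulum releases calcium, left 6.21% and 4.74%.

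**Figure D3:**
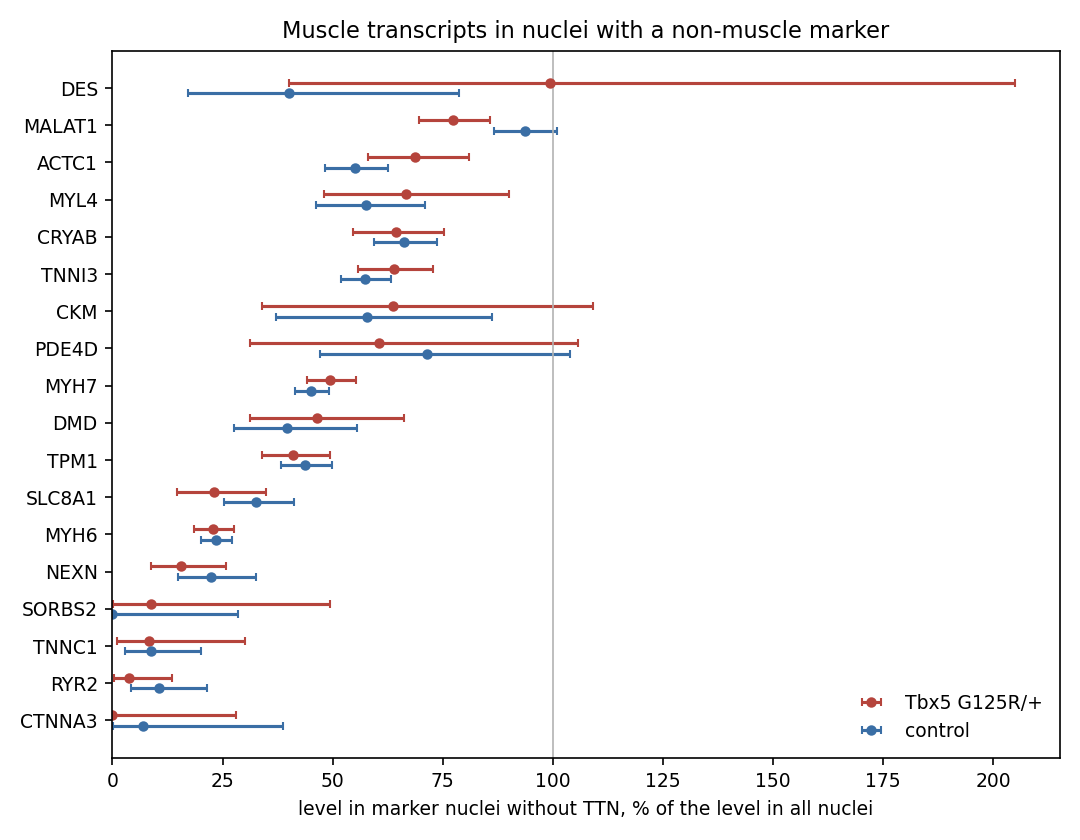
Level of muscle transcripts in nuclei with a COL1A1, FBLN1, FLT1 or MRC1 count and no TTN count, as a percentage of the gene's level over all nuclei of its library (x axis); MALAT1 is a nuclear non-coding RNA. Points are Tbx5 G125R/+ (red) and control (blue) and bars are 95% Poisson intervals of the marker-nucleus counts. CRYAB at 64.4% and 66.3% lies with TNNI3, ACTC1 and MYL4, and TNNC1 at 8.31% and 8.65% lies with RYR2. PDE4D, listed with the long cardiomyocyte transcripts, also lies near CRYAB, at 60.5% and 71.4%, and MALAT1 lies above it, at 77.4% and 93.7%.

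Shallow nuclei carried the most CRYAB per count. Nuclei under 60 counts had CRYAB at 114 per 10000 in Tbx5 G125R/+ (n = 201, 94.5 to 137) and 81.0 in control (n = 56, 52.9 to 119), and nuclei of 60 to 79 counts had 47.3 and 62.7. The level was lowest from 100 up to 150 counts, at 21.8 (19.3 to 24.5) and 25.8 (23.3 to 28.5), and 40.0 and 55.1 at 250 or more counts. The 459 Tbx5 G125R/+ and 365 control nuclei under 80 counts had a log2 ratio over deeper nuclei of 1.36 and 0.86 for CRYAB, where the median of all genes with 100 or more counts was −0.16 and −0.01. CKM had 23 and 13 counts in these nuclei, and a log2 ratio of 1.89 in Tbx5 G125R/+ and 0.89 in control. TNNI3 (1.28 and 0.74), ACTC1 (1.20 and 0.57) and MYL4 (1.33 and 0.89) were likewise higher, whereas TTN (−1.39 and −1.91) and MALAT1 (−0.72 and −0.51) were lower in shallow nuclei. In nuclei without TTN the course was the same on the shallow side, with CRYAB at 98.1 and 78.2 under 60 counts and 17.5 and 22.1 from 100 up to 150. On the deep side the libraries parted: 44 Tbx5 G125R/+ nuclei of 250 or more counts without TTN were at 8.46 per 10000 (4.37 to 14.8, 12 counts) and 124 control nuclei at 28.1 (23.1 to 33.8, 111 counts). Shallow nuclei made up 15.6% of the Tbx5 G125R/+ and 10.5% of the control library, and the part of depth in the other values here was not tested beyond the depth limits given with the alternatives.

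**Figure D4:**
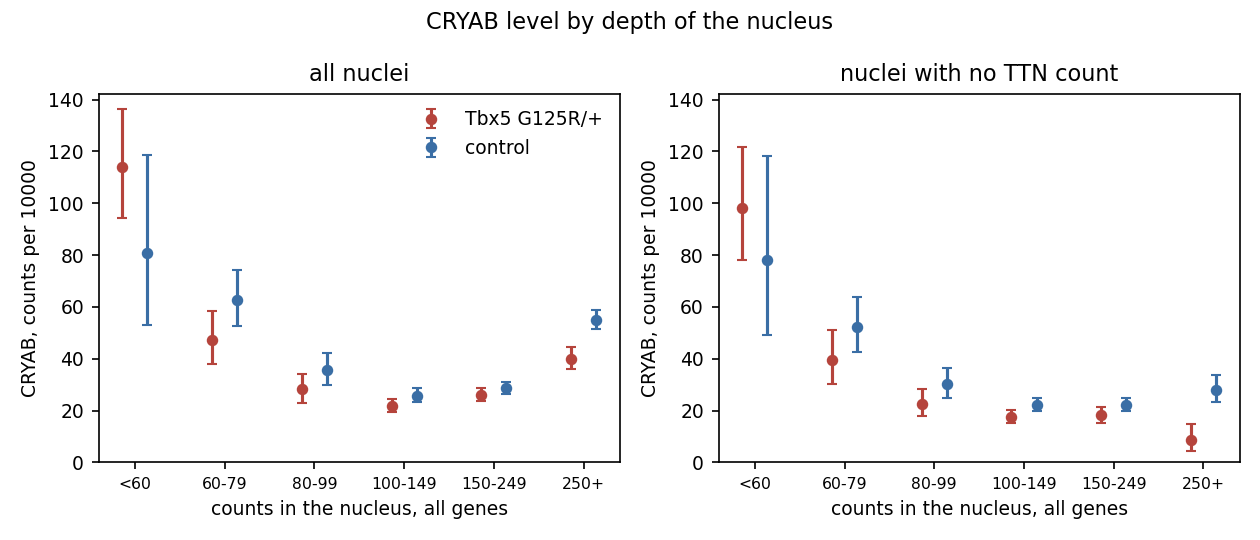
Level of CRYAB in counts per 10000 (y axis) by the total counts of the nucleus (x axis), for all nuclei (left) and nuclei without TTN (right). Points are pooled levels of Tbx5 G125R/+ (red) and control (blue) with 95% Poisson intervals; the level falls from under 60 counts, 114 and 81.0 in all nuclei, to the class of 100 up to 150 counts, 21.8 and 25.8.

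CRYAB and CKM stood in a like ratio to each other in the classes compared. There were 11.9 CRYAB counts per CKM count over all Tbx5 G125R/+ nuclei (9.78 to 14.6) and 12.3 over all control nuclei (10.5 to 14.4). The ratio was 13.2 (9.68 to 18.5) and 13.4 (10.5 to 17.3) in nuclei without TTN, and 12.2 (8.73 to 17.4) and 9.70 (7.47 to 12.8) in TTN-rich nuclei. In marker nuclei without TTN it was 12 (6.82 to 23.0) and 14.04 (9.28 to 22.2). All of these intervals overlap, although at CKM's counts they would also hold ratios that differ by 1.5-fold. CRYAB relative to TNNI3 was 0.67 and 0.73 in nuclei without TTN, 0.67 and 0.65 in TTN-rich nuclei, and 0.69 and 0.82 in marker nuclei without TTN. CRYAB relative to MYH6 was 1.49 and 1.61 in nuclei without TTN, and 0.28 and 0.32 in TTN-rich nuclei. CRYAB relative to ACTC1 differed in control, at 1.38 (1.24 to 1.52) without TTN and 0.93 (0.83 to 1.04) in TTN-rich nuclei. Tbx5 G125R/+ had 1.17 (1.04 to 1.33) and 1.06 (0.93 to 1.21). TNNC1 shifted too: without TTN it had 3 and 18 counts beside 568 and 938 of CRYAB. In TTN-rich nuclei it had 107 and 189 beside 462 and 611.

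Over all nuclei, those with CKM held CRYAB more often. CRYAB was found in 45.4% of the 97 Tbx5 G125R/+ nuclei with CKM (35.2 to 55.8) and 27.1% of those without, and in 70.5% of the 146 control nuclei with CKM (62.4 to 77.8) and 30.0% of those without. After a draw of 80 counts per nucleus the shares were 29.8% with and 16.1% without CKM in Tbx5 G125R/+, and 44.4% and 18.1% in control. In nuclei without TTN the shares after the draw were 13.4% with and 12.8% without CKM in Tbx5 G125R/+, and 38.0% and 14.8% in control. In marker nuclei without TTN the libraries differed in direction on small numbers: 1 of 13 Tbx5 G125R/+ nuclei with CKM held CRYAB, and 16 of 24 control nuclei did.

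By profile, the genes most like CRYAB were MYH7 (r = 0.90), ATP5MC2 (0.90), SERPINB5 (0.89), EFCAB10 (0.89) and PLEKHA7 (0.88), among 376 genes with at least 500 counts. Likeness was the Pearson correlation of log2(counts per 10000 + 0.5) over 24 points, which are 12 classes of TTN and TNNI3 counts in each of the 2 libraries and share their nuclei and depth. CKM itself was at 0.56 with CRYAB on this measure. The genes most like CKM were SLC25A3 (0.79), ATP5MG (0.78), MYL4 (0.71), ATP5MC1 (0.68) and MKLN1 (0.67). ATP5MC1, ATP5MC2 and ATP5MG encode subunits of the mitochondrial ATP synthase, and SLC25A3 the mitochondrial phosphate carrier. The median gene had r = −0.23 with CRYAB and −0.10 with CKM.

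Between the genotypes, CRYAB was lower in the Tbx5 G125R/+ library by a small amount. Its log2 ratio over control was −0.26 (−0.37 to −0.16) over all nuclei, −0.24 (−0.42 to −0.06) in TTN-rich nuclei and −0.23 (−0.38 to −0.08) in nuclei without TTN. Without nuclei of 4 or more TNNI3 counts, an alternative chosen after the data were seen, these were −0.06, 0.09 and −0.17, so the direction in TTN-rich nuclei turned. CKM was at −0.22 (−0.58 to 0.13), −0.56 (−1.19 to 0.04) and −0.20 (−0.79 to 0.36), with 0 inside each interval. Neither gene was past 1.5-fold. Lower by over 1.5-fold in Tbx5 G125R/+ were 2.52% of 1708 genes with at least 100 counts over all nuclei, 6.13% of 424 in TTN-rich nuclei and 2.34% of 1238 in nuclei without TTN, and the median log2 ratios of these genes were −0.02, −0.02 and −0.01. Over all nuclei 18.6% of genes had a lower ratio than CRYAB and 23.4% a lower ratio than CKM. TTN itself was higher in Tbx5 G125R/+, at 129 per 10000 beside 96.0 in control over all nuclei (log2 ratio 0.43, 0.37 to 0.48). Within TTN-rich nuclei TTN was at 439 and 384 (0.19, 0.13 to 0.25), so the TTN classes are not alike between the libraries. Among the 6 TTN classes the widest CRYAB gap was in nuclei of 2 to 3 counts. The log2 ratio of CRYAB there, from the levels given above (52.3 and 96.5 per 10000), was −0.88 (−1.19 to −0.59). TNNI3 had −0.68 (−0.93 to −0.43) and MYL4 −0.71 (−1.29 to −0.17) in the same nuclei, and CKM 0.11 (−0.91 to 1.10). With 8 to 15 TTN counts CRYAB was at −0.56 (−0.87 to −0.27) and CKM at −1.09 (−2.35 to −0.03), the latter on 10 and 26 counts. With 16 or more TTN counts the CRYAB ratio was 0.20 (−0.21 to 0.62) and the CKM ratio 0.59 (−0.83 to 2.22).

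TNNI3 itself was lower in Tbx5 G125R/+ (log2 ratio −0.20, −0.29 to −0.12). Within the 4 classes of TNNI3 content taken alone the CRYAB difference was smaller, but not within every class of TTN and TNNI3 together. The log2 ratio was 0.04 (−0.14 to 0.21) in nuclei without TNNI3, −0.09 (−0.30 to 0.13) with 1 count, −0.18 (−0.40 to 0.04) with 2 to 3 and −0.13 (−0.37 to 0.09) with 4 or more. Weighted to a common make-up of the 4 TNNI3 classes, CRYAB was at 33.3 per 10000 in Tbx5 G125R/+ and 35.2 in control, a log2 ratio of −0.08, and CKM at 2.78 and 2.80, a ratio of −0.01. Over 9 classes of TTN and TNNI3 counts together, the weighted ratios were −0.19 for CRYAB and −0.12 for CKM. With 2 or more TNNI3 counts the CRYAB ratio was −0.42 (−0.73 to −0.13) at 1 to 3 TTN counts. It was −0.34 (−0.57 to −0.12) in TTN-rich nuclei and −0.12 (−0.47 to 0.21) in nuclei without TTN. The other joint classes ran from −0.39 to 0.25. Nuclei of 4 or more TNNI3 counts were 2.52% of the Tbx5 G125R/+ and 4.98% of the control library, and they held 15.6% and 31.0% of the CRYAB counts and 14.5% and 39.4% of the CKM counts. Without these nuclei the CKM ratio was 0.19 over all nuclei, −0.01 in TTN-rich nuclei and −0.03 in nuclei without TTN. A common make-up of depth classes left CRYAB at −0.28 and a common make-up of TTN classes at −0.29. Depth also split the ratio, at −0.36 (−0.47 to −0.25) in nuclei of 80 or more counts and 0.14 (−0.17 to 0.45) in shallower ones.

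**Figure D5:**
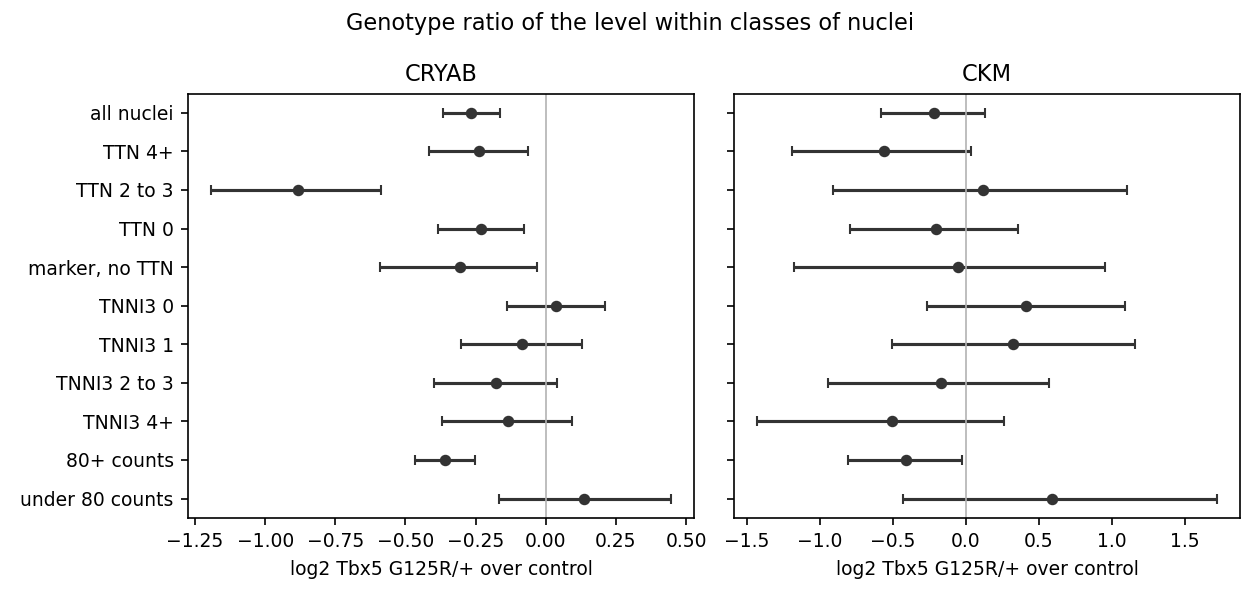
Log2 ratio of the level in Tbx5 G125R/+ over control (x axis) within classes of nuclei (rows), for CRYAB (left) and CKM (right); bars are 95% intervals from counting error. CRYAB is at −0.26 over all nuclei and between −0.18 and 0.04 within the 4 classes of TNNI3 counts, and CKM intervals hold 0 in all rows but nuclei of 80 or more counts.

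Few relatives of the members could be measured. Of 19 genes of muscle chaperones and small heat shock proteins 11 had a count and 5 had at least 100, of which CRYAB was the only small heat shock gene. HSPA8, the constitutive cytosolic chaperone of all cells, was at 117% (79.8 to 165) and 95.02% (70.7 to 124.9) of its overall level in marker nuclei, and its genotype log2 ratio was −0.16 (−0.48 to 0.14). The cytosolic chaperones HSP90AA1 and HSP90AB1 had genotype log2 ratios of 0.18 (−0.32 to 0.68) and −0.18 (−0.65 to 0.28). DES, the muscle intermediate filament that CRYAB protects, had 38 and 82 counts and a log2 ratio of −0.69 (−1.30 to −0.13). Among the 5 genes of the list with at least 100 counts it was the 1 lower by over 1.5-fold, beside 2.52% of all 1708 genes. In the list of 20 muscle energy genes CKM alone reached 100 counts. Of 7 short contractile transcripts that did, 6 were lower and 1 higher in Tbx5 G125R/+, with a median log2 ratio of −0.20 and 0 past 1.5-fold. Examples were MYL4 at −0.47 (−0.67 to −0.28), ACTC1 at −0.22 (−0.33 to −0.11), MYH7 at −0.11 (−0.17 to −0.04) and MYH6 at 0.08 (−0.0013 to 0.15). Of 8 long cardiomyocyte transcripts, 2 were lower and 6 higher, with a median of 0.45, beside a median of −0.02 over all 1708 genes. RYR2 was at 0.49 (0.24 to 0.73) and SLC8A1 at −0.27 (−0.43 to −0.11). Higher by over 1.5-fold were 2 of the 8, beside 2.63% of the 1708 genes. The short and long lists do not separate genes by length, as MYL4 of the short list spans 45091 bases and NEXN of the long list 29369.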

How the data were processed

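Single-nucleus RNA sequencing of right atria was analysed from 2 tables of counts deposited by the authors, 1 per genotype, in which raw counts per nucleus and gene are listed without zeros. According to the labels, nuclei with at least 1000 reads were kept. Sources used here do not name the aligner or counting tool; mm10 is named in the submitters' processing notes. A deposited table of the authors' own cluster comparisons (fold changes and p-values) was not used. Counts of a class of nuclei were summed and divided by the sum of all counts, per 10000. Intervals are exact 95% Poisson (levels), Clopper-Pearson (shares) and conditional binomial (ratios, with 0.5 counts added to each sum of the log2 value). Counts were not corrected for gene length, so a ratio of counts between genes was read only across classes of nuclei. Shares at equal depth are the exact expectation for 80 counts drawn per nucleus. Gene coordinates and spans came from GENCODE M21, sequences from RefSeq (GRCm38.p6), where 1 of the 2 members matched a promoter.

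No clusters were formed and no doublet caller was run; nuclei were classed by their TTN, TNNI3 and marker counts. The members, gene lists and markers were chosen with earlier results of these data known. Genes named were the members, the genes of the selection rule, up to 4 further genes per list by counts (100 or more), and the 5 genes most like each member; others are said to be chosen later. The interval calculation was tested on simulated Poisson counts, which hold no clumping between nuclei. It was not tested on counts clumped as CRYAB was, for which the intervals can be too narrow. Alternatives were the TTN limit, the denominator, depth limits, thinning, median-of-ratios scaling, the added count and the gene minimum. Python 3.11.15, numpy 2.4.6, scipy 1.17.1, pandas 2.3.3 and matplotlib 3.10.9 were used.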

Additional observations from a re-analysis of the deposited data

How the results depend on the processing

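Of 80 alternatives computed for the members' ratios and shares, 62 stayed within the 95% interval of the main value, 17 moved outside it and 1 reversed. The CRYAB log2 ratio of TTN-rich over TTN-free nuclei (0.93 in Tbx5 G125R/+ and 0.94 in control) was 0.63 and 0.73 with 8 or more TTN counts, 0.63 and 0.20 with 16 or more (added after seeing the data), and 1.24 and 1.10 in nuclei of 100 or more counts. It was 1.74 in Tbx5 G125R/+ nuclei of 200 or more counts and 1.21 in control with 2 or more TTN counts. The CKM ratio with 16 or more TTN counts was 1.15 in Tbx5 G125R/+ and 0.36 in control. Without nuclei of 4 or more TNNI3 counts (added after seeing the data), the CRYAB ratio of Tbx5 G125R/+ over control was −0.059 over all nuclei and 0.088 in TTN-rich nuclei, where it reversed, and that of CKM was 0.19 over all nuclei. In nuclei of 100 or more counts without TTN the CRYAB ratio was −0.42. The share of marker nuclei with CRYAB was 13.97% in Tbx5 G125R/+ and 15.02% in control after drawing 80 counts, and 20.7% in control without TNNI3. For CKM the control share was 1.13% after the draw and 1.27% without TNNI3. Genes past 1.5-fold between the genotypes numbered 88 of 1708, 660 of 4028 with a minimum of 20 counts and 11 of 379 with 500. The cause of these shifts was not tested. Median-of-ratios scaling moved the genotype ratios over all nuclei by 0.02 and changed no direction. No paired analysis was possible because each genotype is 1 library. Depth limits CKM most, with 110 and 170 counts in all.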
